A study of Mus musculus with 2 samples.

Results

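The transferrin receptor and the regulators of its mRNA were followed here as 4 features of 1 CITE-seq data set, in which RNA and antibody tags are read from the same cell. They were chosen by name: the gene rows Tfrc (ENSMUSG00000022797), Aco1 (ENSMUSG00000028405) and Ireb2 (ENSMUSG00000032293), and the surface-tag row CD71, the protein that Tfrc encodes. These are 3 of 32285 genes and 1 of 126 tags, and all 4 passed the minimum of 200 UMIs (unique molecular identifiers, each 1 captured molecule). The cells were LSK cells of mouse bone marrow, sorted as negative for lineage markers and positive for Sca-1 and c-Kit, a fraction in which the stem cells of blood (HSCs) and the multipotent progenitors that follow them (MPPs) are found. The chelator pool came from mice given deferoxamine, an iron chelator, at 50 mg/kg, and the control pool from mice given the vehicle HBSS. Both were dosed daily for 7 days every 4 weeks over 13 months, from an age of about 6 months, and the labels name neither a strain nor an altered gene. Each condition was 1 pool with its own hashtag antibody. How many mice fed each pool is not given in the sources used here, so animals cannot be compared, no p-value is given, and each interval (95%) covers counting error alone.

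A cell takes up iron through the transferrin receptor, which binds iron-loaded transferrin at the surface, carries it into endosomes and returns to the membrane. Tfrc mRNA carries iron-responsive elements, hairpins in its 3′ untranslated region, and in iron-poor cells the iron regulatory proteins IRP1 (from Aco1) and IRP2 (from Ireb2) bind them and slow its decay. IRP1 in iron-rich cells holds an iron-sulfur cluster and works as the cytosolic aconitase, whereas IRP2 is tagged for degradation by the ubiquitin ligase subunit FBXL5, so both proteins are regulated mainly after their mRNAs are made. In bone marrow CD71 is best known from dividing cells and from erythroid precursors, which take up iron for haem.

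In the mm10 assembly (GRCm38.p6 in RefSeq) Tfrc lies on chromosome 16 from 32608896 to 32632794, Aco1 on chromosome 4 from 40143265 to 40199009 and Ireb2 on chromosome 9 from 54862658 to 54912534, all protein-coding. Since Tfrc RNA differed widely between kinds of LSK cells and the RNAs of its regulators far less, the RefSeq promoter windows of 300 bases around the annotated starts are shown for comparison, plus strand, 5′ to 3′. They span chr16:32608646-32608945 for Tfrc, chr4:40143015-40143314 for Aco1 and chr9:54863505-54863804 for Ireb2. The Tfrc and Aco1 windows include the first base of the gene spans above. The Ireb2 window lies inside its gene span, downstream of the first base at 54862658, so the letters around that base were not searched. Capitals mark ACGTG, the core of hypoxia-response elements, and TGACGT, the core of cyclic-AMP-response elements, both searched on both strands.
Tfrc: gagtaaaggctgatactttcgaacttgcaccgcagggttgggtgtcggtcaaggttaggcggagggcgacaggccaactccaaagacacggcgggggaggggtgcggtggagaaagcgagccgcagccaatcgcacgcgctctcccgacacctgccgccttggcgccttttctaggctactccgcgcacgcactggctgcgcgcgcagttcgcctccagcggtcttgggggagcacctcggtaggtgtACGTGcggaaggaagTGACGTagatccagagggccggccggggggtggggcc
Aco1: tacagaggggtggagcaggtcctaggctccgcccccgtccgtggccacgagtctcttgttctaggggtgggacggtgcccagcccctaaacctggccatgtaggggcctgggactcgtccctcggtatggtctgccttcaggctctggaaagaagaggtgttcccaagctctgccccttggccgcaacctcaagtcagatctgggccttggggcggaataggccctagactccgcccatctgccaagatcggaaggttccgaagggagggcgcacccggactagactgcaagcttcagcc
Ireb2: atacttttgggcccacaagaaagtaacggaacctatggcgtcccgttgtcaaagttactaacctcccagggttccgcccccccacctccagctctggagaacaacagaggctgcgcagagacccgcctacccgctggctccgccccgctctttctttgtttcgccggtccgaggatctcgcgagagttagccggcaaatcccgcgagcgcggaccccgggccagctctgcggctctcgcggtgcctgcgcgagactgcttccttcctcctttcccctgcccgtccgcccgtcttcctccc
The Tfrc window held 1 copy of each core, from positions 249 and 264, and the overlapping window of a second annotated Tfrc start, chr16:32608872-32609171, held the same pair. The Aco1 and Ireb2 windows held neither core. Of 32851 mouse promoter windows of this length, 19.6% held ACGTG and 7.51% held TGACGT. The GC box GGGCGG occurred 3 times each in the Aco1 and Ireb2 windows and was not found in the first Tfrc window but occurred 2 times in the second, and 35.7% of all windows held it. The letters CACGTG, the E-box bound by MYC and its relatives, were in none of the 3 windows shown and in 7.15% of all. These are matches of letters in these windows and no evidence of binding.

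The chelator pool kept 3998 of 4037 barcodes and the control pool 3969 of 4026, at a median of 14455.5 and 13705 gene UMIs and of 3448.5 and 3041 surface-tag UMIs per cell, and the pools shared 0 barcodes. In 4037 chelator and 4025 control barcodes the hashtag of that condition had more UMIs than the other one. The sort genes Kit and Ly6a were present in both pools, Kit at 300 and 292 CPM (UMIs scaled to the total of gene UMIs) and Ly6a at 138 and 152 CPM in the chelator and control pools. The pools differed in sex make-up: 897 chelator and 1417 control cells had Xist alone, and 2542 and 1952 had Y-linked transcripts alone. Doublets remain, since the caller marked 3 cells in each pool, and 52 chelator and 35 control cells carried transcripts of both sexes. The 9 isotype tags, antibodies without a target on these cells, gave 0.54 to 2.62 UMIs per cell each in the chelator pool and 0.52 to 2.20 in the control pool, and serve as the background for CD71.

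Across whole LSK cells the CD71 tag was lower in the chelator pool while none of the 3 RNAs differed between the pools beyond counting error. Tfrc gave 791 UMIs (11.9 CPM) in the chelator pool and 792 UMIs (12.5 CPM) in the control pool, a log2 ratio of -0.07 (-0.22 to 0.07). Aco1, whose protein switches between aconitase and RNA binding, gave 898 UMIs (13.5 CPM) in chelator cells and 828 UMIs (13.1 CPM) in control cells, a log2 ratio of 0.04 (-0.09 to 0.18). Ireb2, whose protein is the form removed by FBXL5, gave 1554 UMIs (23.4 CPM) in chelator cells and 1436 UMIs (22.7 CPM) in control cells, a log2 ratio of 0.04 (-0.06 to 0.15). The intervals of all 3 include no difference and leave out a change of more than 1.2-fold. A gene was called higher or lower when its ratio passed 1.2-fold and its interval left out 1, and by this rule 1.86% of 12513 genes were higher and 1.82% lower in the chelator pool, with 0 of the 3 RNAs among them.

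The CD71 tag gave 15280 UMIs in the chelator pool and 18483 in the control pool, which is 10.2 and 13.9 per 10000 surface-tag UMIs, and 3.82 and 4.66 UMIs per cell with medians of 2 and 3. Its log2 ratio was -0.45 (-0.48 to -0.42), and 583 chelator and 357 control cells had no CD71 UMI. It was 1 of 8 tags called lower in the chelator pool (6.35% of 126), whereas 3 tags were called higher (2.38%). The lower ones were CD62P (-0.56), CD93 (-0.48), CD71, CD135 (-0.42), CD34 (-0.40), CD11c, CD45 and CD2. The pools were stained with separate hashtag antibodies, and the labels list CD62P, CD135 and CD34 among 4 antibodies added to the commercial cocktail; whether staining differed between the pools was not tested and cannot be told apart from the treatment. Of the 9 isotype tags, 8 had log2 ratios from -0.09 to 0.09 and MOPC.21 stood at 0.38. Per isotype UMI there were 0.26 CD71 UMIs in the chelator pool and 0.37 in the control pool.

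**Figure D1:**
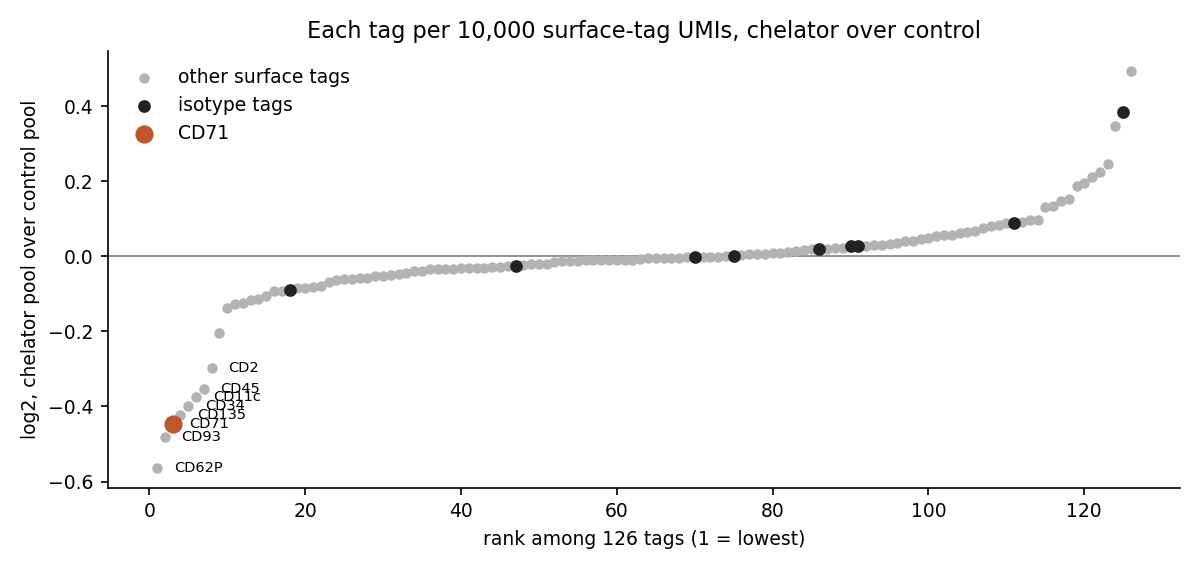
Log2 ratio, chelator pool over control pool, of each of 126 surface tags per 10000 surface-tag UMIs (y axis) by rank (x axis), with CD71 in orange, isotype tags in black and other tags in grey. CD71 is the tag with the third lowest ratio, at -0.45, and the isotype tags run from -0.09 to 0.38.

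CD71 was lower in the chelator pool within each sex and within each cycle state. Among cells with Xist alone CD71 stood at 13.3 per 10000 tag UMIs in the chelator pool and 17.6 in the control pool (log2 -0.40), and among cells with Y-linked transcripts alone at 9.69 and 12.9 (log2 -0.41), so each sex showed a difference of about the same size. Tfrc RNA was at 13.1 CPM in both pools in Xist cells (log2 0.00, -0.25 to 0.26) and at 11.6 CPM in chelator and 12.7 CPM in control cells in Y-linked cells (-0.14, -0.33 to 0.06). Cycling cells had 15.5 CD71 UMIs per 10000 in the chelator pool and 21.7 in the control pool (log2 -0.49). Non-cycling cells had 5.64 and 7.97 (log2 -0.50). These non-cycling values lay near the background, at 1.21 times the median isotype tag in the chelator and 1.70 times in the control pool. Raw CD71 UMIs per cell were also lower in the chelator pool (log2 -0.29, -0.32 to -0.25), although chelator cells carried more tag UMIs in all.

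Across the surface gates, with all cells kept, Tfrc RNA and the CD71 tag were lowest in the HSC gate and higher in all 4 MPP gates. For MPP1 the higher Tfrc rested on 4 chelator and 6 control cells with the erythroid transcripts Klf1 and Car1. Without such cells in either gate, MPP1 over HSC gave a mean log2 ratio of -0.18 (-0.54 to 0.16) for Tfrc. Gates were ranges of the CD135, CD48 and CD150 tags. The MPP4 gate was CD135+ CD150-, and of the CD135- cells MPP3 was CD48+ CD150-, MPP2 CD48+ CD150+, MPP1 CD48- CD150- and HSC CD48- CD150+. In the chelator and control pools these held 1287 and 1510 MPP4, 619 and 503 MPP3, 102 and 92 MPP2, 560 and 547 MPP1, and 1308 and 1162 HSC cells. Tfrc stood at 14.5 CPM in chelator and 14.2 CPM in control cells of the MPP4 gate, at 13.4 and 12.6 CPM in MPP3, at 17.3 and 15.6 CPM in MPP2, and at 11.2 and 15.0 CPM in MPP1. In the HSC gate Tfrc was at 7.61 CPM in chelator and 8.60 CPM in control cells. The order in the chelator pool was MPP2, MPP4, MPP3, MPP1, HSC, in the control pool MPP2, MPP1, MPP4, MPP3, HSC, and the intervals of the 4 MPP gates overlapped in both pools. MPP4 over HSC gave a log2 ratio of 0.93 (0.65 to 1.22) in the chelator pool and 0.73 (0.44 to 1.02) in the control pool, 0.83 on average. Tfrc was called higher there beside 20.1% of genes, with 24.3% called lower (the call now has to hold in both pools).

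CD71 followed the same division between the HSC gate and the others, and in the HSC gate it came close to the isotype tags. It stood at 14.5 per 10000 tag UMIs in chelator and 19.8 in control cells of the MPP4 gate, at 15.5 and 19.6 in MPP3, at 14.1 and 15.3 in MPP2, and at 11.7 and 16.7 in MPP1. In the HSC gate CD71 was at 5.91 in chelator and 7.36 in control cells, where the isotype tags ran from 1.68 to 7.41 and from 1.92 to 6.81. CD71 was above 7 of 9 isotype tags in chelator HSC-gate cells and above all 9 in control ones, at 1.29 and 1.63 times the median isotype tag. In the MPP4 gate it was at 2.96 times the median isotype tag in chelator and 4.23 times in control cells. The log2 ratio of MPP4 over HSC was 1.29 (1.23 to 1.35) in the chelator pool and 1.43 (1.37 to 1.49) in the control pool, and 33.3% of tags were called higher in that comparison. HSC-gate cells carried more tag UMIs in all, with 5021 per cell in the chelator and 4539 in the control pool against 2747 and 2547 in the MPP4 gate. Unscaled CD71 came to 3.98 UMIs per MPP4 cell and 2.97 per HSC cell in the chelator pool, and to 5.05 and 3.34 in the control pool, a mean log2 ratio of 0.51 in place of 1.36. The direction held on both scales, and the size depends on the scale.

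**Figure D2:**
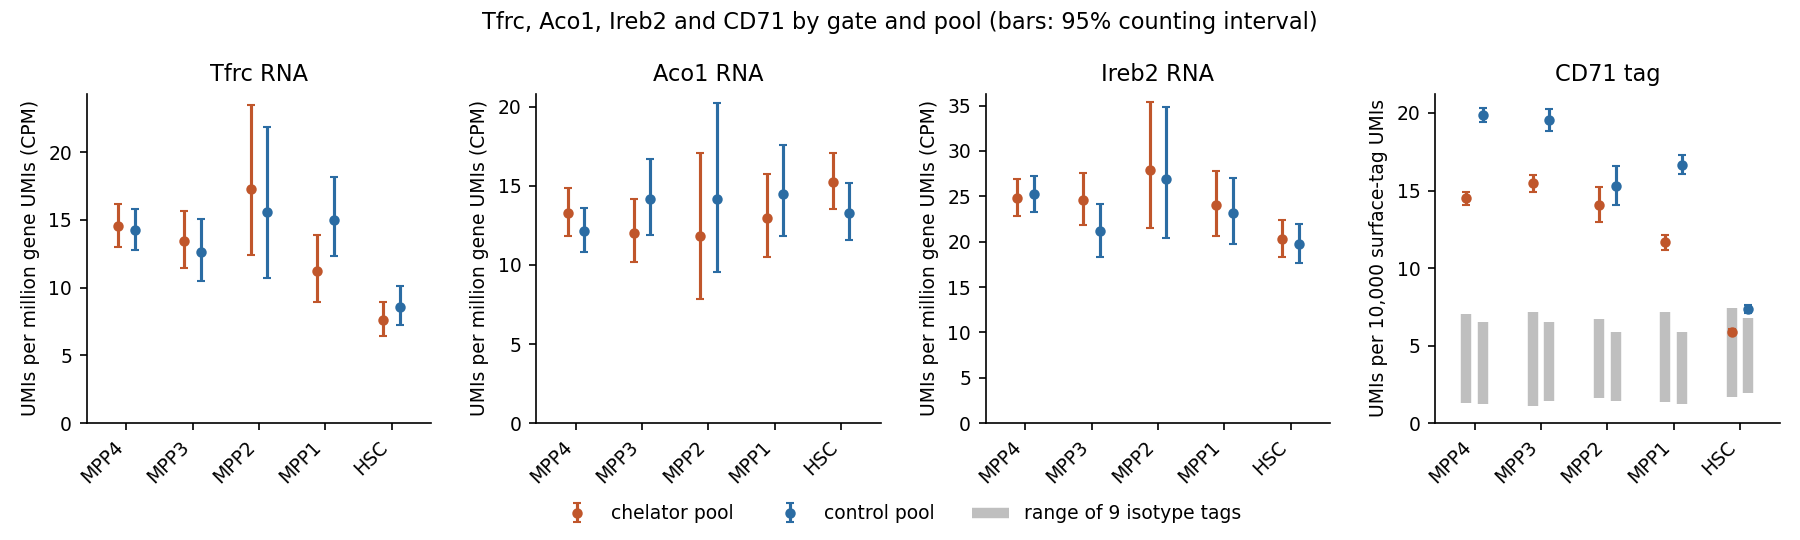
Levels of Tfrc, Aco1 and Ireb2 RNA (CPM) and of the CD71 tag (per 10000 surface-tag UMIs) in 5 gates, chelator pool in orange and control pool in blue, with 95% counting intervals; grey bars in the CD71 panel span the 9 isotype tags. With all cells kept, Tfrc and CD71 are lowest in the HSC gate, where CD71 in chelator cells (5.91) lies inside the isotype range. For MPP1 the higher Tfrc rested on a few Klf1 and Car1 cells.

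Aco1 and Ireb2 RNA varied less across gates. Aco1 ranged from 11.8 to 15.2 CPM over the 5 gates in the chelator pool and from 12.1 to 14.5 CPM in the control pool, highest in the HSC gate of the chelator pool and in the MPP1 gate of the control pool. Its MPP4 over HSC log2 ratio was -0.16 (-0.34 to 0.01), an interval that includes no difference. Ireb2 stood at 24.8 CPM in chelator and 25.2 CPM in control cells of the MPP4 gate, at 24.6 and 21.1 in MPP3, at 27.9 and 26.9 in MPP2, at 24.0 and 23.2 in MPP1, and at 20.3 and 19.7 in the HSC gate. It was thus lowest in the HSC gate of both pools, with an MPP4 over HSC log2 ratio of 0.32 (0.19 to 0.46), and was called higher in both pools. Within a gate the chelator pool's Tfrc, Aco1 and Ireb2 RNA all had intervals against control that include no difference, whereas CD71 was lower in chelator cells by log2 values of -0.45 in MPP4, -0.34 in MPP3, -0.52 in MPP1 and -0.32 in HSC. In MPP2, the smallest gate, it was -0.12 (-0.29 to 0.05). Without cells that carry the erythroid transcripts Klf1 and Car1, 4 chelator and 6 control cells in MPP1, the MPP1 value was -0.26 (-0.37 to -0.15), and those of MPP4, MPP3 and HSC were -0.38, -0.26 and -0.42.

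Cycling cells, those whose S or G2M gene score was above 0 after thinning each cell to 5000 UMIs, had 1.97 times the Tfrc RNA and 2.74 times the CD71 tag of non-cycling cells on average. Tfrc stood at 14.7 CPM in cycling and 7.37 CPM in non-cycling cells of the chelator pool, and at 15.7 and 8.03 CPM in those of the control pool. Cycling cells were higher in both pools with intervals that do not overlap, and the log2 ratio was 0.99 (0.75 to 1.24) in the chelator pool and 0.97 (0.74 to 1.21) in the control pool. By this contrast Tfrc ranked 759 of 12513 genes, of which 21.5% were called higher and 29% lower. CD71 stood at 15.5 in cycling and 5.64 in non-cycling chelator cells per 10000 tag UMIs, and at 21.7 and 7.97 in control cells, with log2 ratios of 1.46 (1.41 to 1.51) and 1.45 (1.40 to 1.49). It was among the 17.5% of tags called higher, and the isotype tags had ratios from -0.38 to 0.03. In non-cycling chelator cells CD71 was above 7 of 9 isotype tags and at 1.21 times their median, and in non-cycling control cells above all 9 and at 1.70 times their median. Cycling cells held more gene UMIs (22255 in chelator and 21726 in control cells, against 12492 and 12169 in non-cycling ones), and the part of free RNA in the cycle calls was not tested. The calls rest on gene scores, and 21.8% of chelator and 21.4% of control cells had their higher score within 0.1 of the limit. Of 12 proliferation genes that are in neither score, chosen after the values were seen, 12 were higher in the cells called cycling in each pool, by log2 ratios from 2.03 to 7.10 in the chelator and from 2.03 to 6.97 in the control pool. The cyclin gene Ccna2 was at 124 CPM in cycling and 0.91 CPM in non-cycling chelator cells, and at 117 and 1.06 CPM in control cells. Such genes belong to the phases that the scores read, so this outcome was largely set in advance. It does not test the calls of cells near the limit.

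The RNAs of the 2 regulators did not pass 1.2-fold between cycling and non-cycling cells. Aco1 was at 12.7 CPM in cycling and 14.8 CPM in non-cycling chelator cells, and at 12.8 and 13.5 CPM in control cells, a mean log2 ratio of -0.15 (-0.29 to -0.01). Ireb2 was at 24.7 and 21.3 CPM in chelator and at 23.0 and 22.2 CPM in control cells, a mean log2 ratio of 0.13 (0.02 to 0.24). Between the cycle phases, however, these 2 genes parted. Aco1 stood at 9.51 CPM in G2M and 14.8 CPM in S cells of the chelator pool and at 9.22 and 15.3 CPM in those of the control pool, with log2 ratios of -0.64 (-0.92 to -0.36) and -0.73 (-1.03 to -0.44). Ireb2 stood at 27.9 CPM in G2M and 22.5 CPM in S cells of the chelator pool and at 27.5 and 19.9 CPM in those of the control pool, with log2 ratios of 0.31 (0.13 to 0.49) and 0.47 (0.27 to 0.67). So in both pools G2M cells had less Aco1 and more Ireb2 RNA than S cells, and both genes were called, where 16% of all genes were lower and 12.4% higher. Tfrc did not differ between the phases beyond counting error (log2 0.06, -0.12 to 0.23), although it was lower in G2M without Klf1 and Car1 cells (-0.32, -0.51 to -0.12), whereas CD71 was higher in G2M cells at 19.3 against 13.2 in the chelator pool and 28.8 against 17.3 in the control pool (mean log2 0.64, and 0.40 without Klf1 and Car1 cells).

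**Figure D3:**
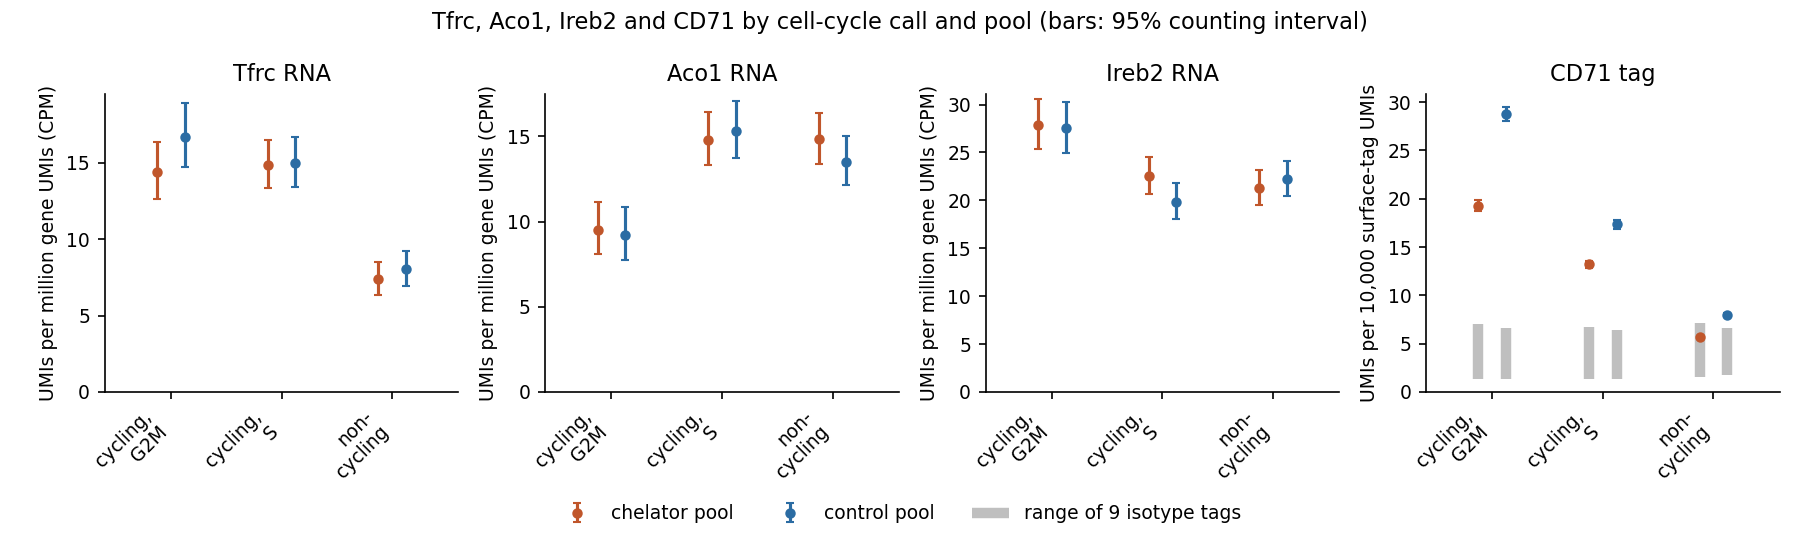
Levels of the 3 RNAs (CPM) and of the CD71 tag (per 10000 surface-tag UMIs) in G2M, S and non-cycling cells, chelator pool in orange and control pool in blue, with 95% counting intervals and the isotype range in grey. Aco1 is lowest and Ireb2 highest in G2M cells of both pools, and CD71 steps down from G2M to S to non-cycling cells.

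Since 61.3% of chelator and 56.8% of control MPP4-gate cells were cycling, against 23.2% and 22.1% of HSC-gate cells, the 2 contrasts were also read one within the other. Within the HSC gate Tfrc was at 9.49 CPM in cycling and 6.64 CPM in non-cycling chelator cells and at 10.8 and 7.51 CPM in control cells, a mean log2 ratio of 0.52 (0.16 to 0.87). Within the MPP4 gate it was at 15.9 and 10.0 CPM in chelator and 16.3 and 9.76 CPM in control cells, a mean log2 ratio of 0.70 (0.42 to 0.99). Within the MPP1 gate it was at 16.3 and 6.13 CPM in chelator and 30.1 and 4.44 CPM in control cells, a mean log2 ratio of 2.08 (1.57 to 2.64), which was 0.83 (0.20 to 1.47) without the cells of that gate with Klf1 and Car1 transcripts (3 of 4 chelator and 6 of 6 control ones were cycling). In MPP3 the interval of the mean included no difference (0.41, -0.08 to 0.95), and in MPP2 too few cells were non-cycling (12 chelator and 17 control) to give a ratio. Read the other way, MPP4 over HSC gave 0.67 (0.38 to 0.97) among cycling cells and 0.49 (0.14 to 0.83) among non-cycling cells, so Tfrc differed by gate within each cycle state. CD71 was higher in cycling cells of the HSC, MPP1, MPP3 and MPP4 gates, by mean log2 ratios of 0.80, 2.09, 0.89 and 1.18. Without the Klf1 and Car1 cells described next these were 0.68, 0.43, 0.70 and 0.90, so the MPP1 value was then the smallest of the 4. CD71 was likewise higher in MPP4 than in HSC-gate cells among cycling (1.15) and among non-cycling cells (0.78).

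A few cells with erythroid transcripts carried a share of both readouts far above their share of cells. Cells with at least 1 UMI each of Klf1, an erythroid transcription factor, and Car1, a carbonic anhydrase of early erythroid cells, numbered 38 in the chelator and 49 in the control pool. Tfrc was at 62.1 CPM in these chelator and 88.4 CPM in these control cells, against 11.0 and 10.7 CPM in the other cells, a mean log2 ratio of 2.77 (2.54 to 2.99). CD71 was at 207 and 245 per 10000 tag UMIs, against 8.80 and 11.5, a mean log2 ratio of 4.48 (4.44 to 4.52). Aco1 was also higher in them (23.6 and 27.9 CPM against 13.3 and 12.7 CPM, mean log2 0.98, 0.59 to 1.33), and Ireb2 was not called (19.2 and 25.2 CPM against 23.4 and 22.6 CPM). In this contrast 12.3% of genes were higher and 21.7% lower in both pools. From 0.95% of chelator and 1.23% of control cells came 8.98% and 16.8% of Tfrc UMIs and 14.4% and 17.9% of CD71 UMIs. Within them Tfrc was lower in the chelator pool (log2 -0.51, -0.95 to -0.08), and so was CD71 (-0.24, -0.32 to -0.16). Most of these UMIs came from the 12 chelator and 15 control cells of this class with at least 20 CD71 UMIs. They held 64 of 71 Tfrc UMIs in the chelator and 121 of 133 in the control pool. The intervals count UMIs and do not cover differences between so few cells. In Klf1 and Car1 cells the sort gene Ly6a was at 16.6 (chelator) and 11.3 CPM (control), against 138 and 152 CPM in whole LSK. Kit was at 169 and 202 CPM in Klf1 and Car1 cells, against 300 and 292 CPM. The summed level of 8 erythroid markers in whole LSK was 133 CPM in the chelator and 229 CPM in the control pool.

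Leaving out the Klf1 and Car1 cells moved the following values by differing amounts. The MPP1 gate's Tfrc excess over the HSC gate (mean log2 0.68) was gone without them: Tfrc was then at 8.27 CPM in chelator and 5.87 CPM in control MPP1 cells, against 7.41 and 8.41 CPM in HSC-gate cells, a mean log2 ratio of -0.18 (-0.54 to 0.16). The MPP1 gate held 4 such cells in the chelator and 6 in the control pool, and its CD71 excess fell to 0.23 in place of 1.08. The cycle and MPP4 contrasts kept their direction without these cells. Cycling over non-cycling gave 0.75 (0.57 to 0.92) for Tfrc, in place of 0.98, and 1.09 for CD71, in place of 1.46. MPP4 over HSC gave 0.76 (0.55 to 0.97) for Tfrc, in place of 0.83. For CD71 it gave 1.22 in the chelator and 1.18 in the control pool. Chelator over control for CD71 was -0.39 (-0.43 to -0.36) without them, and for Tfrc 0.05 (-0.11 to 0.20).

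The distribution of CD71 had a long upper tail. Cells with at least 20 CD71 UMIs, a limit chosen after the values were seen, numbered 57 in the chelator and 64 in the control pool and held 24.4% and 29.2% of all CD71 UMIs, up to 379 and 588 in 1 cell. Of these, 12 chelator and 15 control cells had Klf1 and Car1 transcripts, and in them Tfrc reached 101 and 155 CPM. The other 45 and 49 had Tfrc at 24.1 and 22.6 CPM. Klf1 and Car1 cells with fewer CD71 UMIs had Tfrc at 13.7 and 16.6 CPM, so high Tfrc RNA went with the tag within that class. The cells rich in CD71 were mostly cycling (52 of 57 chelator and 61 of 64 control cells) and lay mainly in the MPP4 (26 and 29) and MPP3 gates (17 and 20). The 8 erythroid markers, Klf1 and Car1 among them, summed to 1864 CPM in CD71-rich chelator and 3538 CPM in CD71-rich control cells. In the remaining cells they summed to 74.9 and 94.9 CPM. The 6 granulocyte-monocyte markers, Mpo and Elane among them, summed to 9698 and 8651 CPM in CD71-rich cells, against 1056 and 940 CPM. The 6 stem cell markers summed to 111 and 124 CPM in CD71-rich cells, against 769 and 752 CPM. They also held 38024 and 38524 gene UMIs per cell on average, so their depth and the doublets among them move with this class, and their part in it was not tested.

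**Figure D4:**
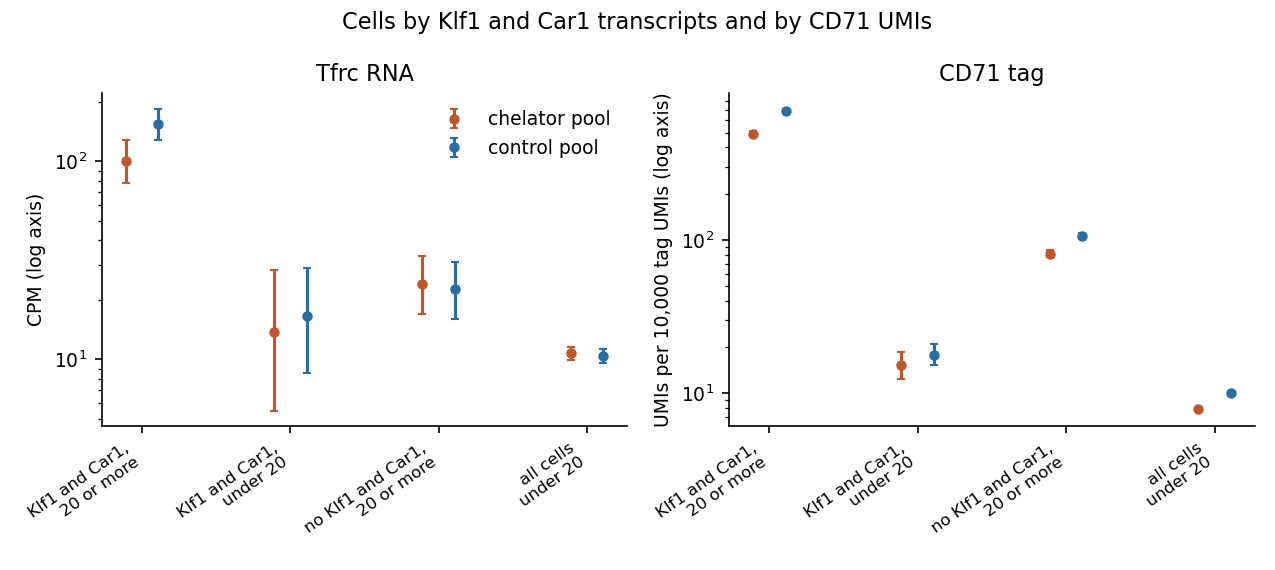
Tfrc RNA (CPM) and CD71 tag (per 10000 surface-tag UMIs) on log axes in 4 classes of cells set by Klf1 and Car1 transcripts and by at least 20 or fewer CD71 UMIs (the last class holds all cells with fewer, so it includes the second), chelator pool in orange and control pool in blue, with 95% counting intervals. Tfrc reaches 101 and 155 CPM in cells with both, and CD71 is high or low there by construction.

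Cell by cell, Tfrc RNA was higher mainly at the top of the CD71 range. With the cells of each pool ranked by CD71 per surface-tag UMI and cut into 5 quintiles, Tfrc from the lowest to the highest quintile was at 8.19, 6.95, 9.49, 11.0 and 19.9 CPM in the chelator pool and at 8.25, 9.62, 8.13, 8.49 and 23.3 CPM in the control pool. The lower 3 quintiles of the chelator pool and the lower 4 of the control pool had overlapping intervals, and the highest quintile stood apart in both. Highest over lowest gave ratios of 2.43 (1.91 to 3.13) in the chelator and 2.83 (2.22 to 3.63) in the control pool, and 16.5% of genes were called higher and 22.4% lower between these quintiles. The highest quintile was also the most cycling, with 76.6% of chelator and 69.1% of control cells against 26.7% and 28.0% in the lowest. Within non-cycling cells alone the mean log2 ratio was 0.47 (0.01 to 0.93), and without Klf1 and Car1 cells it was 1.04 (0.78 to 1.30). Aco1 gave -0.07 (-0.29 to 0.15) and Ireb2 0.20 (0.03 to 0.37), and neither was called. Ranked by the summed isotype tags instead, Tfrc gave 0.15 (-0.07 to 0.37). The CD71 tag itself was higher at the top of that ranking, by a mean log2 ratio of 0.34 (0.29 to 0.39). The part of background binding in the CD71 ranking was not tested.

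**Figure D5:**
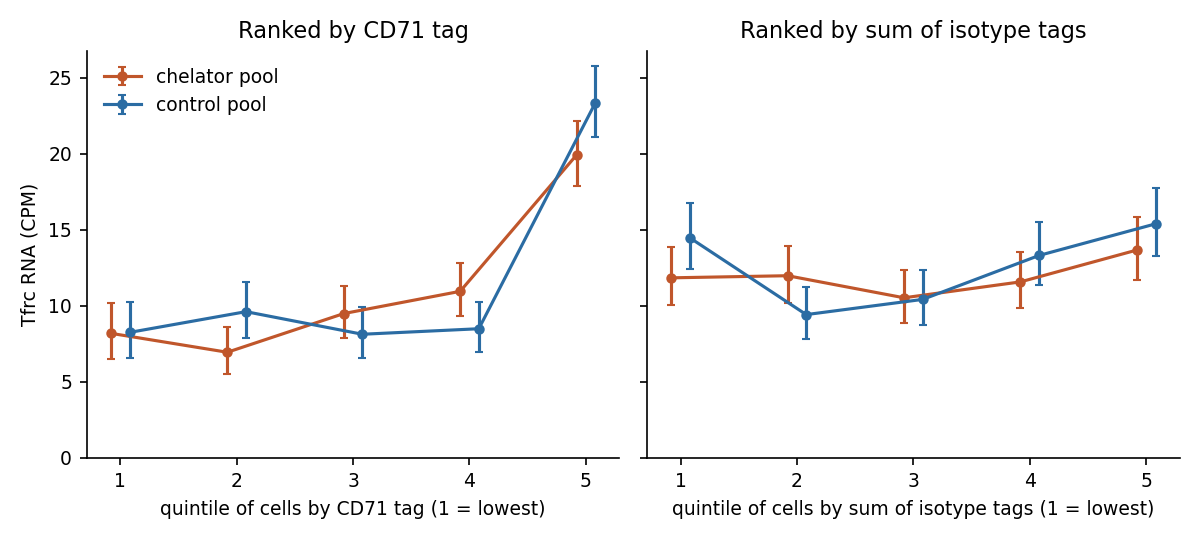
Tfrc RNA (CPM, y axis) in quintiles of cells ranked from lowest to highest by the CD71 tag (left) or by the sum of isotype tags (right), each per surface-tag UMI, chelator pool in orange and control pool in blue, with 95% counting intervals. Only ranking by CD71 sets the highest quintile apart, at 19.9 CPM in the chelator and 23.3 CPM in the control pool.

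Across 18 groups of cells (gate, cycle state and pool, at least 50 cells each) the levels of Tfrc RNA and the CD71 tag had a Pearson r of 0.90 on log2 scales, given as a description because the groups share libraries and pools. Klf1 and Car1 cells were kept in these groups. In cycling MPP1 cells of the control pool Tfrc was at 30.1 CPM and CD71 at 37.2, against 8.30 and 9.34 without them. In those of the chelator pool the levels were 16.3 and 21.3, against 10.4 and 8.46. Neither this r nor those below were computed again without these cells. Of 9840 genes with at least 1000 UMIs, Cdc34 (0.89), Dlst (0.87), Got1, Eed and Glrx5 (0.86 each) were most like Tfrc, and Psme2 (0.91), Eed (0.91), Cdc34 (0.91), Hspa8 (0.91) and Phf5a (0.90) most like CD71. Eed and Cdc34 were on both lists. Dnttip2 was most like Ireb2 (0.89), and Ccdc137 was most like Aco1 (0.73). Aco1 and Ireb2 ran opposite to each other across the groups (-0.56), and neither followed Tfrc closely (-0.21 and 0.25).

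The wider pathway was read through 9 lists with 89 genes in the files, of which 86 had at least 200 UMIs. Between the pools 0 of 86 were called higher and 2 lower, Alas2 and Gata1, beside 1.86% and 1.82% of all genes. The lists thus did not stand out from all genes by these counts. Their median log2 ratio was -0.0043, against -0.0025 over all genes. Alas2, the first enzyme of haem synthesis in erythroid cells and an mRNA with an iron-responsive element, was at 2.72 CPM in the chelator and 4.32 CPM in the control pool (log2 -0.67, -0.94 to -0.39). Gata1, a transcription factor of erythroid cells and megakaryocytes, was at 16.6 CPM in the chelator and 20.7 CPM in the control pool (-0.32, -0.43 to -0.20). Gata1 is 1 of the 8 erythroid markers whose summed level is given above; the part of erythroid cells in both values was not tested. In the 7 lists with no called member, the most abundant gene differed little: Snx3 of transferrin receptor recycling had a log2 ratio of -0.0012, Skp1a of the IRP2 ligase 0.03, Glrx3 of cytosolic iron-sulfur assembly 0.03 and Hspa9 of mitochondrial assembly 0.0038. Zfp36l2, which binds AU-rich mRNAs, stood at 0.09, the ferritin heavy chain Fth1 at 0.02, and the isocitrate dehydrogenase Idh2 at -0.02.

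Between cycling and non-cycling cells 23 of the 86 were called higher and 18 lower, beside 21.5% and 29% of all genes, with a median log2 ratio of 0.03 where that over all genes was -0.07. In the transferrin cycle 1 of 17 was higher and 4 lower. The higher one was Steap3, the endosomal ferrireductase that works after the receptor has delivered its iron, at 19.2 CPM in cycling and 5.95 CPM in non-cycling chelator cells and at 22.7 and 6.62 CPM in control cells (mean log2 1.73). Tfr2, the second transferrin receptor, was lower in cycling cells at 53.6 and 69.8 CPM in the chelator and 57.2 and 69.5 CPM in the control pool (-0.33), the opposite direction to Tfrc. The recycling GTPases Rab4a (-0.76) and Rab11a (-0.59) were lower too.

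Of 9 other mRNAs with iron-responsive elements 3 were lower in cycling cells, the ferritin light chain Ftl1 (-0.59), Cdc42bpa (-0.68) and Pfn2 (-2.06), and 1 was higher. Among 8 genes of IRP2 turnover, Fbxl5, the iron-sensing ligase subunit, was lower at 33.5 and 40.7 CPM in chelator cycling and non-cycling cells and at 32.3 and 42.4 CPM in control ones (-0.34), while Rbx1 and Mms19 (0.30 each) were higher. Of 11 cytosolic genes of iron-sulfur assembly 6 were higher and 0 lower, led by Nubp1 (0.88), Ciapin1 (0.82), Ciao2a (0.43) and Nubp2 (0.40), and of 16 mitochondrial genes 6 were higher and 2 lower, with Glrx5 at 0.49, Hspa9 at 0.41 and Isca1 at -0.71.

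Of 9 factors known to act on the decay of Tfrc or other short-lived mRNAs, 4 were lower and 1 higher in cycling cells. The lower ones were Zfp36 at 245 and 728 CPM in chelator cycling and non-cycling cells and 194 and 610 CPM in control ones (-1.61), Zfp36l2 (-0.73), Zc3h12a (-0.63), which encodes the RNase Regnase-1, and Zfp36l1 (-0.55). Of 8 transcription factors known to act on Tfrc, Gata1 was higher (2.34), and Mycn (-2.03), Arnt (-0.43) and Ets1 (-0.43) were lower. Of 8 genes of ferritin and its turnover 2 were higher and 2 lower, and of 8 aconitase and isocitrate enzymes 5 were higher and 1 lower, with Idh3a at 0.81, Idh2 at 0.73, Idh3g at 0.44 and Idh1, the cytosolic enzyme downstream of cytosolic aconitase, at -0.60. All these list counts stand beside 21.5% of all genes called higher and 29% called lower in cycling cells. Some genes stand in more than 1 list, and nothing is read from a list beyond these counts.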

How the data were processed

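Lineage-depleted marrow was stained, per the labels, for 30 min with sort, cocktail and hashtag antibodies, and about 20000 LSK cells were sorted per sample, mixed and loaded once on a 10x Genomics 5′ kit. The deposited matrices, 1 for each condition, give whole-number UMI counts with no normalization. The tools were Seurat 4.3.0 and Cell Ranger 7.0.0 and the build mm10, per the submitters' processing notes. Which matrix belongs to which condition was checked by the hashtag counts. The sources used here do not give the annotation release, the barcode filters or the hashtag calling. The 5′ counting of RNA measures abundance, and neither iron nor protein activity was measured.

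A minimum of 500 genes and a maximum of 10% mitochondrial UMIs removed 39 chelator and 57 control barcodes. For each gate tag a mixture of 2 normal components was fitted to centred log ratios (scikit-learn 1.9.0); 22.1% of cells were near the CD135 threshold (within 0.25), 9.78% near that of CD48 and 5.35% near that of CD150. Cycle scores (scanpy 1.11.5) used cells thinned to 5000 UMIs and left out 138 chelator and 159 control cells as too shallow. UMIs were summed over the cells of a pool. RNA was scaled to total gene UMIs and CD71 to total surface-tag UMIs, of which CD49f and CD117 made up 54.1% in the chelator and 55.2% in the control pool. Ratios carry exact conditional binomial intervals and levels exact Poisson intervals (scipy 1.17.1). Contrasts within pools are means of both pools' log2 ratios. On simulated data with 12508 genes for chelator over control, 99.5% of changed genes were recovered and 0.658% of unchanged ones called. Both simulated pools were Poisson draws around the control pool's counts, with changes well past the 1.2-fold limit. They held counting error alone, without differences between animals, sexes or staining. These shares therefore check the arithmetic of the rule and are not error rates of the real calls.

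Genes named were the members, up to 4 called members per list by size of ratio (otherwise the most abundant), and the 5 genes nearest to each member in Pearson r of log2(CPM + 10), of which only the first is given for Aco1 and Ireb2. Some genes that this rule names are not reported here. The members, lists, marker genes and gates were chosen with earlier results of these data known. The alternatives covered scaling, cell filters, doublets, sex, cycle calls, gate margins and erythroid cells; leaving out cells with 20 or more CD71 UMIs, a tag total without CD49f and CD117, the quintiles without Klf1 and Car1 cells, the quintiles within cycling cells and the cycle contrast within gates without Klf1 and Car1 cells were added after seeing the data.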

Additional observations from a re-analysis of the deposited data

Results flagged for a closer look

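Opposite directions between gates, by log2 ratios of chelator over control beyond 0.1 in size, were seen for 2 of the 4 features, and these differences between gates were not tested. Tfrc RNA was lower in the chelator pool in the HSC gate (-0.18, -0.52 to 0.17) and the MPP1 gate (-0.42, -0.85 to 0.00) and higher in the MPP2 gate (0.15, -0.54 to 0.86). Aco1 RNA was higher in the chelator pool in the HSC gate (0.20, -0.06 to 0.46) and the MPP4 gate (0.13, -0.10 to 0.36) and lower in MPP1 (-0.16, -0.57 to 0.25), MPP2 (-0.26, -1.06 to 0.53) and MPP3 (-0.23, -0.58 to 0.11). Each of these 8 intervals includes no difference. The gates rest in part on CD135, a tag lower in the chelator pool, and whether they hold the same mix of cells in both pools was not tested. Without Klf1 and Car1 cells the MPP1 value of Tfrc was 0.49 (-0.11 to 1.11).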

How the results depend on the processing

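In all, 23 alternatives were tried, not each for every result, and for the comparisons that lead the text 138 of 163 ratios stayed within the main interval and 5 changed sign. The main interval included 0 in each of these 5: Tfrc of chelator over control (-0.07) was 0.0041 in Xist cells, 0.05 without Klf1 and Car1 cells and 0.04 without CD71-rich cells, Aco1 of that comparison (0.04) was -0.0044 in Y-linked cells, and Aco1 in MPP4 over HSC (-0.16) was 0.055 in Xist cells. The CD71 log2 ratio of chelator over control (-0.45) was -0.52 relative to isotype tags, -0.29 as UMIs per cell, -0.48 with a tag total without CD49f and CD117, -0.40 and -0.41 in cells with Xist or Y-linked transcripts alone, -0.41 with both sexes weighted equally, -0.39 without Klf1 and Car1 cells and -0.36 without cells of at least 20 CD71 UMIs. For cycling over non-cycling cells, Tfrc (0.98) was 0.78 in Xist cells, 0.75 without Klf1 and Car1 cells and 0.70 without CD71-rich cells, and CD71 (1.46) was 1.54, 1.41, 1.60, 1.53, 1.09 and 0.84 relative to isotype tags, as UMIs per cell, in Xist cells, with sexes weighted equally, without Klf1 and Car1 cells and without CD71-rich cells. For MPP4 over HSC, CD71 (1.36) was 0.51 as UMIs per cell, 1.55 without cells near a gate threshold, 1.2001 without Klf1 and Car1 cells, 1.01 without CD71-rich cells and 1.17 without CD49f and CD117 in the total. Tfrc in the highest over the lowest CD71 quintile (1.39) was 0.47 within non-cycling cells and 1.04 without Klf1 and Car1 cells. The causes were not tested, beyond the fewer cells or the other total that each alternative uses by construction.

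Among the further comparisons 195 of 253 ratios stayed within the main interval and 13 changed sign, 2 of them where the main interval left out 0: Tfrc in MPP1 over HSC (0.68) was -0.18 without Klf1 and Car1 cells and -0.16 without CD71-rich cells. Of the other 11, 5 lay outside the main interval: Tfrc in G2M over S (0.06) was -0.25 in Xist cells, -0.32 without Klf1 and Car1 cells and -0.31 without CD71-rich cells, and Aco1 was 0.14 in MPP3 over HSC (-0.12) in Xist cells and 0.29 in MPP2 over HSC (-0.14) in Y-linked cells. Tfrc in Klf1 and Car1 cells over the others (2.77) was 1.70 in Xist cells, 3.34 in Y-linked cells and 0.52 without CD71-rich cells, where CD71 (4.48) was 0.90. Tfrc in MPP2 over HSC (1.02) was 0.28 in Xist and 1.64 in Y-linked cells, and in MPP3 over HSC (0.69) 0.23 and 0.97. Calls among pathway genes went to 3 from 2 between the pools at most, and to 42 from 41 with cycling. No paired analysis was possible because each condition was 1 pool and the labels number no replicates across conditions. With 791 Tfrc UMIs in the chelator pool and 792 in the control pool, differences within the small gates were not detectable at this depth unless large.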
